A study of Homo sapiens with 6 samples.

Results

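The bone morphogenetic protein (BMP) genes examined here were 10 of the 58735 genes measured by RNA sequencing of AsPC-1 cells. They were picked out by gene symbol, with earlier results of these data known. They comprised the ligands BMP2, BMP4 and BMP7, the receptors BMPR1A and BMPR2, the signal transducer SMAD9, the extracellular inhibitor GREM1 and the target genes ID1, ID2 and ID3. AsPC-1 is an established human pancreatic cancer cell line. In the Vector group, the cells of 3 libraries bore an empty lentivirus, and in the OE-MMP28 group those of 3 libraries bore a lentivirus with the cDNA of MMP28, a secreted matrix metalloproteinase. By the study's methods the MMP28 vector also carried green fluorescent protein and puromycin resistance, and infected cells were selected with puromycin. All libraries came from 1 cell line. The sequencing methods give triplicate samples, and while cell experiments in general are said there to have been repeated independently, neither the methods nor the labels say so of these libraries, so p-values measured the spread between these samples, which may be technical.

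BMP ligands are secreted dimers that bring together type I receptors, such as BMPR1A, and type II receptors, such as BMPR2, both of which are serine/threonine kinases. The activated receptors phosphorylate SMAD1, SMAD5 and SMAD9, which join SMAD4 and enter the nucleus to switch on target genes, of which the ID genes are among the most direct. ID proteins are helix-loop-helix proteins without a DNA-binding region that hold E-proteins away from DNA, and in epithelial tumours of the gut and pancreas the pathway is known both for growth restraint and for invasion.

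Start regions are shown for BMP4, a ligand that rose below, BMPR2, a receptor that fell, and ID1, a target that did not pass. They were chosen for these differing results and because these windows lie outside annotated exons. The sequences come from a set of RefSeq promoter windows on GRCh38.p14. The set used here had entries for 8 of the 10 genes, and each sequence is printed 5′ to 3′ on the strand of the gene. For BMP4 it is the most upstream of the 3 windows in that set (chr14:53955051-53955300, minus strand). That window lies inside the gene as annotated for the counts, in an intron. For BMPR2 it is chr2:202376077-202376326 on the plus strand. For ID1 it is chr20:31605039-31605282 on the plus strand, where 6 further bases that fall in an exon were left out. Capitals mark GGCGCC (a GC-rich element that BMP-activated SMADs can bind), GTCT or AGAC (the short SMAD box, read on both strands) and CANNTG (the E-box, bound by E-proteins).
BMP4: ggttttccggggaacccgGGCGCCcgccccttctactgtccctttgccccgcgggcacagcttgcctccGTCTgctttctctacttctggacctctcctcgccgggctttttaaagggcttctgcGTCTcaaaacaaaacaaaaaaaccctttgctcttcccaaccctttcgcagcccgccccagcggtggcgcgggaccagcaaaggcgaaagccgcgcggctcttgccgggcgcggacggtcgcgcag
BMPR2: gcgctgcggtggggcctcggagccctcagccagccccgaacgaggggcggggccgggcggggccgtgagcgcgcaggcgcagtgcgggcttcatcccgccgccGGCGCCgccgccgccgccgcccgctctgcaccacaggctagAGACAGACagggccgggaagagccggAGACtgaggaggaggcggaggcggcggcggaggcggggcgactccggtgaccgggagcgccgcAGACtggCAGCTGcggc
ID1: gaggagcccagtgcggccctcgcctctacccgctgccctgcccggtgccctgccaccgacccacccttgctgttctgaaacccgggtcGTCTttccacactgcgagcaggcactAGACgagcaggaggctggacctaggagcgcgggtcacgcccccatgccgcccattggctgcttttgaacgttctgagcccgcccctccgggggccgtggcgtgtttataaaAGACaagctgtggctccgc
The BMPR2 window held GGCGCC 1 time, GTCT 4 times and CANNTG 1 time. The BMP4 window held GGCGCC 1 time and GTCT 2 times, and the ID1 window held GTCT 3 times. Among 35116 promoter windows of 250 bases, GGCGCC was present in 16.4%, GTCT in 77.5% and CANNTG in 61.8%, so the short motifs are common everywhere. A match is a description of letters and not of binding.

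The libraries held between 13633249 and 16691458 counts, and 15319 genes had enough counts to be tested. Where a gene had no count in a library, up to 3 counts remained possible, which is 0.180 to 0.220 CPM (counts scaled to the library total). Mitochondrial genes took 11.89% to 14.84% of the counts in the Vector libraries and 8.8% to 11.94% in the OE-MMP28 libraries, and the number of BMP genes that passed the test was the same without them. MMP28 itself had 5.17, 9.11 and 8.43 FPKM (fragments per kilobase of exon length, scaled to the library total) in Vector replicates 1 to 3 and 13.1, 13.9 and 15.1 FPKM in OE-MMP28 replicates 1 to 3. The groups did not overlap, the log2 fold change was 0.90 (SE 0.19, edgeR adjusted p = 0.00226), and the exact permutation test of the FPKM values, two-sided, gave p = 0.1, the smallest that 3 against 3 libraries allow. The 6 ductal epithelial marker genes summed to 2580 to 3520 FPKM in the Vector group and 3520 to 4310 FPKM in the OE-MMP28 group, with 1 of them called higher and 1 lower. The 7 fibroblast markers summed to 33.9 to 40.9 and 39.3 to 57.0 FPKM, the 3 endothelial markers to 0.0441 to 0.17 and 0.179 to 0.293 FPKM, and the 4 leukocyte markers to 1.01 to 1.14 and 0.653 to 0.86 FPKM, with CD3E at 0. Of these, 1 fibroblast, 2 endothelial and 1 leukocyte marker had enough counts to test, and 1 endothelial marker was called higher. The libraries came from 1 cell line, so these sums are transcript levels of that culture and do not count cells of other types. The part of these shifts in the results below was not tested. In bulk RNA, fewer cells with a transcript and less of it per cell cannot be told apart.

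Of the 10 BMP genes, 8 could be tested and 4 of them passed an adjusted p under 0.05 in edgeR's quasi-likelihood test. BMP4 rose, and BMP7, BMPR1A and BMPR2 fell. BMP2, ID1, ID2 and ID3 did not pass, while SMAD9 and GREM1 had too few counts. Over all genes tested 23.4% passed, 11.7% being higher and 11.6% lower in the OE-MMP28 group. Scaled counts of the groups did not overlap for these same 4 genes, as for 38.1% of all genes tested, with 1 BMP gene wholly higher and 3 wholly lower in the OE-MMP28 group beside 19.5% and 18.6% of all genes. No BMP gene passed an unadjusted p under 0.05 together with an absolute log2 fold change over 1, as 8.5% of all genes did. The median log2 fold change of the 8 tested genes was 0.11 and that of all genes tested was 0.01. The count of 4 rested on single libraries, being 3 without Vector replicate 1, 4 without Vector replicate 2, 2 without Vector replicate 3, 3 without OE-MMP28 replicate 1, 1 without OE-MMP28 replicate 2 and 2 without OE-MMP28 replicate 3. The 4 without Vector replicate 2 were not the same genes. There BMP7 was lost (edgeR adjusted p = 0.0578) and ID1 was gained (edgeR adjusted p = 0.00693).

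**Figure D1:**
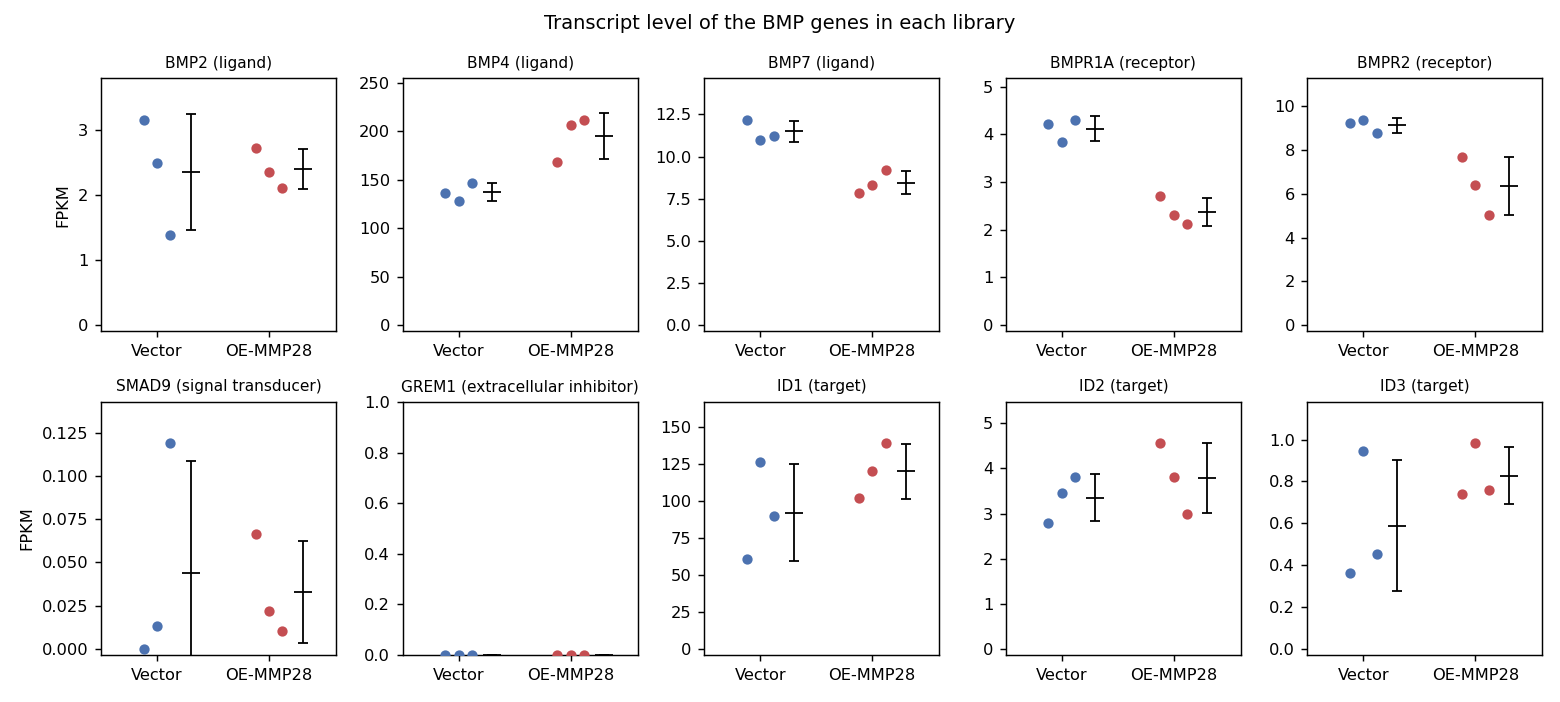
Transcript level (FPKM, vertical axes starting at or just under 0) of the 10 BMP genes in each of the 3 Vector (blue) and 3 OE-MMP28 (red) libraries, replicates 1 to 3 from left to right; the horizontal line is the mean and the bar the SD, which for SMAD9 in the Vector group runs below the axis. BMP4 lies higher and BMP7, BMPR1A and BMPR2 lie lower in every OE-MMP28 library than in any Vector library, while the other genes overlap or are at 0.

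BMP4 (ENSG00000125378, chromosome 14, 53949736 to 53958761, minus strand) encodes a ligand that patterns the embryo and is made by many carcinoma cells. It had 136, 128 and 147 FPKM in Vector replicates 1 to 3 and 168, 206 and 212 FPKM in OE-MMP28 replicates 1 to 3. OE-MMP28 replicate 1 was the lowest of its group but still above the highest Vector library. The mean rose from 137 ± 9.54 to 195 ± 24.0 FPKM (SD, n = 3 each), a log2 fold change of 0.52 (SE 0.15, 95% interval 0.22 to 0.83, edgeR adjusted p = 0.0142). With 5328 to 10992 counts per library, counting error was small, 1.28% and 1.01% in the groups, beside CVs of 6.96% and 12.3% between replicates. The adjusted p was 0.0848 without OE-MMP28 replicate 2 and 0.0561 without OE-MMP28 replicate 3, with log2 fold changes of 0.47 and 0.46. BMP4 was expressed above 98.7% of the genes tested.

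Many genes around BMP4 were higher too. Within 5 Mb on either side, 70 other genes were tested, of which 37 were called higher and 1 lower, against 11.7% and 11.6% of all genes, and their median log2 fold change was 0.63. BMP4 lay below that median, as 42 of the 70 neighbours had a larger log2 fold change. With the neighbours' median taken out as an offset, the log2 fold change of BMP4 was -0.10 (edgeR adjusted p = 0.693). The offset was a fixed value from the same libraries, so this p-value leaves out the uncertainty of the median. The source of the regional shift was not tested.

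BMP7 (ENSG00000101144, chromosome 20, 57168748 to 57266629, minus strand) encodes a ligand known for kidney and bone formation. Its levels were 12.2, 11.0 and 11.2 FPKM in Vector replicates 1 to 3 against 7.83, 8.31 and 9.19 FPKM in OE-MMP28 replicates 1 to 3. Each OE-MMP28 library was below each Vector library. The mean fell from 11.5 ± 0.623 to 8.45 ± 0.691 FPKM (SD, n = 3 each), a log2 fold change of -0.43 (SE 0.15, 95% interval -0.75 to -0.11, edgeR adjusted p = 0.0472). This call was close to the threshold. It was lost without Vector replicate 1 (adjusted p = 0.119), Vector replicate 2 (0.0578), Vector replicate 3 (0.131), OE-MMP28 replicate 1 (0.0791) or OE-MMP28 replicate 2 (0.153), while the log2 fold change stayed between -0.50 and -0.38. The call was also lost with the replicate number as a block (adjusted p = 0.0611). The 39 neighbours of BMP7 had a median log2 fold change of -0.07. Of these, 2 were called higher and 3 lower, against 11.7% and 11.6% of all genes. The offset for neighbours left -0.36 (adjusted p = 0.117).

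BMP2 (ENSG00000125845, chromosome 20, 6767664 to 6780280, plus strand), a ligand close in sequence to BMP4 and known for bone induction, was measured at 3.16, 2.49 and 1.39 FPKM in Vector replicates 1 to 3 and at 2.72, 2.36 and 2.11 FPKM in OE-MMP28 replicates 1 to 3. All OE-MMP28 values lay inside the Vector range. The log2 fold change was 0.04 (SE 0.25, 95% interval -0.49 to 0.57, edgeR adjusted p = 0.93), so a change of either sign up to about the size of that seen for BMP4 was within the interval. The CV between Vector replicates was 38.0% where counting alone gives 9.02%, and leaving out Vector replicate 3 gave a log2 fold change of -0.23.

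The balance of the ligands was dominated by BMP4 throughout. Of the summed FPKM of 14 BMP-type ligand genes, BMP4 made up 87.6% to 90.6% in the Vector libraries and 93.3% to 94.5% in the OE-MMP28 libraries. BMP7 made up 6.92% to 7.83% and 3.82% to 4.36%, and neither share overlapped between the groups. The shares are parts of the same total, so a higher BMP4 alone lowers the others, and their separation is not a further result. The share of BMP2 was 0.860% to 2.03% and 0.940% to 1.51%, which overlapped.

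BMPR1A (ENSG00000107779, chromosome 10, 86756601 to 86932838, plus strand) encodes the type I receptor that prefers BMP2 and BMP4. Its level was 4.22, 3.83 and 4.31 FPKM in Vector replicates 1 to 3, and 2.70, 2.30 and 2.11 FPKM in OE-MMP28 replicates 1 to 3. The groups lay well apart. The mean fell from 4.12 ± 0.254 to 2.37 ± 0.298 FPKM (SD, n = 3 each), or 0.575 of the Vector level, with a log2 fold change of -0.79 (SE 0.16, 95% interval -1.12 to -0.45, edgeR adjusted p = 0.00149). This was the largest log2 fold change of the 8 tested genes, and the call held in each of the 6 fits that left out 1 library (adjusted p 0.000961 to 0.0158). The pseudogenes BMPR1AP1 on chromosome 6 and BMPR1AP2 on chromosome 11 match its transcript over 1599 and 1011 bases at 98.562% and 99.209% identity, so some reads could be shared, but they held at most 5 and 2 counts per library.

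Part of the genes around BMPR1A were lower as well. Of 37 tested neighbours 12 were called lower and 2 higher, against 11.6% and 11.7% of all genes. Their median log2 fold change was -0.47, and 9 of the 37 lay below BMPR1A. After the offset for neighbours the log2 fold change was -0.32 (edgeR adjusted p = 0.185), so the call did not hold on that scale.

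BMPR2 (ENSG00000204217, chromosome 2, 202376936 to 202567751, plus strand) encodes the type II receptor used by most BMP ligands. The Vector libraries were tightly grouped at 9.24, 9.39 and 8.76 FPKM, and the OE-MMP28 libraries were lower and more spread at 7.67, 6.42 and 5.01 FPKM in replicates 1 to 3. The group means were 9.13 ± 0.333 and 6.37 ± 1.33 FPKM (SD, n = 3 each), a log2 fold change of -0.51 (SE 0.16, 95% interval -0.84 to -0.18, edgeR adjusted p = 0.0249). OE-MMP28 replicate 3, the lowest library, weighed on this value, and without it the log2 fold change was -0.37 (adjusted p = 0.114). The adjusted p was 0.0637 without Vector replicate 3 and 0.0884 without OE-MMP28 replicate 2. Among 55 neighbours 18 were called lower and 2 higher, against 11.6% and 11.7% of all genes. Their median log2 fold change was -0.35, and the offset for neighbours left -0.16 (edgeR adjusted p = 0.548).

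**Figure D2:**
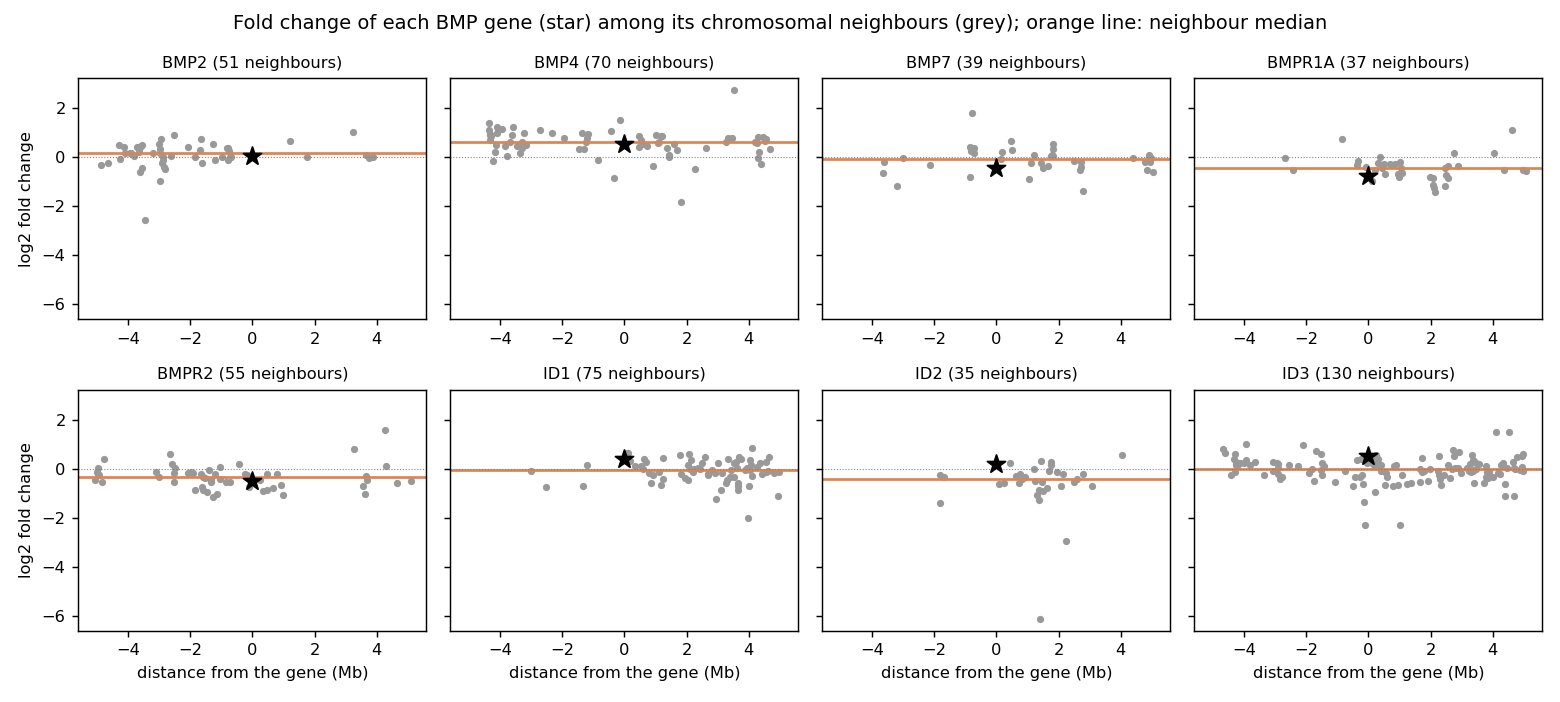
log2 fold change (OE-MMP28 over Vector, vertical axis) of each of the 8 tested BMP genes (star) and of the other tested genes within 5 Mb (grey points) against distance from the gene in Mb, with the neighbours' median as an orange line. The neighbour medians are 0.63 around BMP4, -0.47 around BMPR1A, -0.35 around BMPR2 and -0.40 around ID2, and lie nearer to 0 around the other 4 genes.

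SMAD9 (ENSG00000120693, chromosome 13, 36844831 to 36920765, minus strand), which encodes a receptor-activated SMAD of the BMP branch, was close to the limit of detection. It had 0, 1 and 10 counts in Vector replicates 1 to 3 and 6, 2 and 1 counts in OE-MMP28 replicates 1 to 3. These counts were too low to test, and the Vector mean came almost wholly from replicate 3. GREM1 (ENSG00000166923, chromosome 15, 32717974 to 32745107, plus strand), a secreted antagonist that traps BMP2, BMP4 and BMP7 and is usually made by fibroblasts, was at 0 counts in every one of the 6 libraries, so that no more than 3 counts in each, or 0.180 to 0.220 CPM, could have been missed.

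ID1 (ENSG00000125968, chromosome 20, 31605283 to 31606515, plus strand), a widely used readout of BMP signalling, was the most abundant of the ID genes. It stood at 60.7, 126 and 89.6 FPKM in Vector replicates 1 to 3 and at 102, 120 and 139 FPKM in OE-MMP28 replicates 1 to 3. The groups overlapped, since Vector replicate 2 exceeded OE-MMP28 replicates 1 and 2. The means were 92.1 ± 32.6 and 120 ± 18.5 FPKM (SD, n = 3 each), with a log2 fold change of 0.40 (SE 0.20, 95% interval -0.02 to 0.82, edgeR adjusted p = 0.161). The CV of the Vector replicates was 35.5%, against 2.48% from counting, so the spread between libraries and not depth limited the comparison. Leaving out Vector replicate 2 gave a log2 fold change of 0.69 (adjusted p = 0.00693), and without Vector replicate 1, the lowest library, it was 0.17 (adjusted p = 0.534). With the replicate number as a block it was 0.45 (adjusted p = 0.0425), although these numbers did not pair the samples. The 75 neighbours of ID1 had a median log2 fold change of -0.06, and 66 of them lay below ID1.

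ID2 (ENSG00000115738, chromosome 2, 8678845 to 8684453, plus strand), known for roles in lymphoid and mammary development, had 2.79, 3.46 and 3.82 FPKM in Vector replicates 1 to 3 and 4.56, 3.80 and 2.99 FPKM in OE-MMP28 replicates 1 to 3. The groups overlapped and the log2 fold change was 0.18 (SE 0.23, 95% interval -0.29 to 0.66, edgeR adjusted p = 0.603). Its surroundings were lower, with 11 of 35 neighbours called lower and 1 higher, against 11.6% and 11.7% of all genes. The median log2 fold change of these neighbours was -0.40. Relative to them ID2 stood at 0.58 (adjusted p = 0.0892). The antisense gene ID2-AS1 covers 1.72% of its exon length and had at most 5 counts per library.

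ID3 (ENSG00000117318, chromosome 1, 23557918 to 23559794, minus strand), which acts with ID1 in blood vessel growth, was barely expressed. The counts were 10, 23 and 12 in Vector replicates 1 to 3 and 21, 28 and 23 in OE-MMP28 replicates 1 to 3, or 0.588 ± 0.314 and 0.828 ± 0.135 FPKM (SD, n = 3 each). Vector replicate 2 lay inside the OE-MMP28 range and the other two Vector libraries below it. The log2 fold change was 0.52 (SE 0.42, 95% interval -0.37 to 1.40, edgeR adjusted p = 0.408), and counting alone gave CVs of 25.8% and 20.4% in the groups beside 53.4% and 16.3% between replicates. Both the low counts and the spread of the Vector libraries limited this comparison.

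ID1 made up 95.1% to 96.6% of the summed FPKM of the 4 ID genes in the Vector libraries and 95.1% to 97.4% in the OE-MMP28 libraries. By mean FPKM in the Vector group the order of the 10 genes was BMP4, ID1, BMP7, BMPR2, BMPR1A, ID2, BMP2, ID3, SMAD9 and GREM1. Only ID2 and BMP2, and SMAD9 and GREM1, had overlapping values with the next gene in this order. In the OE-MMP28 group BMPR1A stood at place 7, behind ID2 and BMP2, and its values overlapped those of BMP2.

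**Figure D3:**
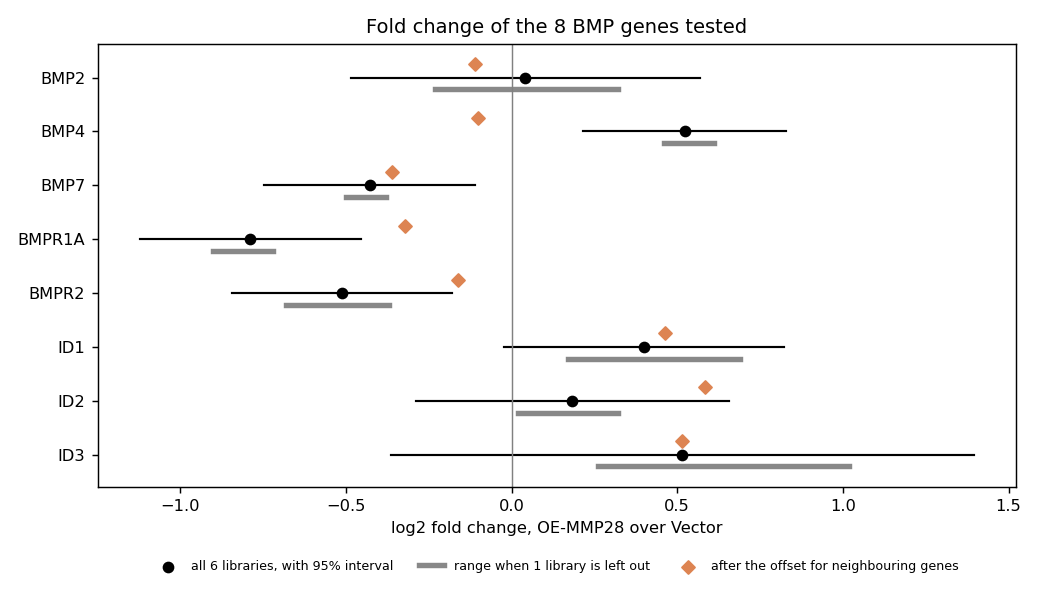
log2 fold change (OE-MMP28 over Vector, horizontal axis) of the 8 tested BMP genes with the 95% interval (black), the range over the 6 fits that each left out 1 library (grey bar) and the value after the offset for neighbouring genes (orange diamond). BMP4 goes from 0.52 to -0.10 with the offset, and the 95% intervals of BMP2, ID1, ID2 and ID3 include 0.

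A further 59 genes of the pathway were read from the same fit by role, and 32 of them could be tested. Of these, 4 rose and 5 fell, 28.1% against 23.4% of all genes tested, and their median log2 fold change was 0.08. No library held more than 8 counts of any of the 27 untested genes, and 15 of them were at 0 throughout. Without 1 library the number called lay between 8 and 11.

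Read against all genes tested, of which 11.7% were called higher and 11.6% lower, the counts by role were as follows. Among the other ligands 3 were tested and 1 fell. BMP6, a ligand known for iron control through hepcidin, had 2.71, 2.00 and 1.54 FPKM in Vector replicates 1 to 3 and 0.569, 0.431 and 0.791 FPKM in OE-MMP28 replicates 1 to 3. The groups were far apart, at 2.08 ± 0.588 and 0.597 ± 0.182 FPKM (SD, n = 3 each), with a log2 fold change of -1.78 (SE 0.32, edgeR adjusted p = 0.000478). Its call held in every alternative, and its 57 neighbours had a median log2 fold change of -0.04.

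Among 6 tested receptors and coreceptors none rose and 3 fell, where 11.6% of all genes fell. ACVR1, a type I receptor that prefers BMP6 and BMP7, had 8.05, 6.84 and 8.15 FPKM in Vector replicates 1 to 3 and 5.02, 4.08 and 3.95 FPKM in OE-MMP28 replicates 1 to 3, a log2 fold change of -0.81 (SE 0.17, edgeR adjusted p = 0.002). The 31 neighbours of ACVR1 had a median log2 fold change of -0.48, with 13 called lower, and the offset for neighbours left -0.33 (adjusted p = 0.201). NEO1, a receptor for repulsive guidance molecules that act as BMP coreceptors, fell from 7.48 ± 0.733 to 4.69 ± 0.782 FPKM (log2 fold change -0.66, adjusted p = 0.00659). ACVR2B, a type II receptor shared with activins, fell from 0.821 ± 0.0711 to 0.490 ± 0.0717 FPKM (log2 fold change -0.74, adjusted p = 0.0119), and its adjusted p was 0.0561 without OE-MMP28 replicate 3. With the neighbour offset the log2 fold changes of NEO1 and ACVR2B were -0.76 and -0.74 (adjusted p = 0.00377 and 0.0168). None of the 3 other signal transducers, SMAD1, SMAD4 and SMAD5, passed the test, their log2 fold changes lying between -0.07 and 0.13.

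Intracellular inhibitors moved in both directions, with 2 of 7 tested genes higher and 1 lower, against 11.7% and 11.6% of all genes. SMAD6, an inhibitory SMAD that is itself induced by BMP, had 4.09, 5.49 and 3.73 FPKM in Vector replicates 1 to 3 and 7.50, 8.25 and 8.63 FPKM in OE-MMP28 replicates 1 to 3. No library overlapped, and the log2 fold change was 0.89 (SE 0.17, edgeR adjusted p = 0.000901), with 0.89 after the neighbour offset. SMURF2, a ubiquitin ligase that works with inhibitory SMADs against receptors, rose from 13.1 ± 1.28 to 19.7 ± 2.24 FPKM (log2 fold change 0.59, adjusted p = 0.00689). Its relative SMURF1, which targets SMAD1 and SMAD5, fell from 126 ± 14.6 to 82.3 ± 4.07 FPKM (log2 fold change -0.61, adjusted p = 0.0045). Of the 128 neighbours of SMURF1, 25 were called lower and 2 higher, and their median log2 fold change was -0.11. The offset for neighbours left -0.49 for SMURF1 (edgeR adjusted p = 0.0229). The value of SMURF1 is uncertain as far as strand was not used in counting, because TRRAP on the other strand covers 11.7% of its exon length and had a log2 fold change of -0.42. For SMURF2 the opposite gene CEP95 covers 2.40%.

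Of 7 tested extracellular antagonists 1 rose, against 11.7% of all genes. SOSTDC1, a secreted inhibitor of BMP and WNT ligands, had 0.661, 1.02 and 0.933 FPKM in Vector replicates 1 to 3 and 1.89, 1.86 and 1.54 FPKM in OE-MMP28 replicates 1 to 3, a log2 fold change of 1.03 (SE 0.29, edgeR adjusted p = 0.0146), and without OE-MMP28 replicate 2 the adjusted p was 0.0698. Of the 3 other tested targets MSX1, MSX2 and RUNX2 none passed, with log2 fold changes of 0.13 to 0.57. Of the 3 E-proteins that ID proteins bind, TCF4 rose from 0.0342 ± 0.0115 to 0.0887 ± 0.0310 FPKM (log2 fold change 1.38, adjusted p = 0.0164). It had only 9 to 54 counts, and its adjusted p was 0.05 without Vector replicate 1 and 0.0961 without OE-MMP28 replicate 1. On the log2(FPKM + 1) scale, which compresses low levels, its difference was 0.07 (limma adjusted p = 0.405).

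**Figure D4:**
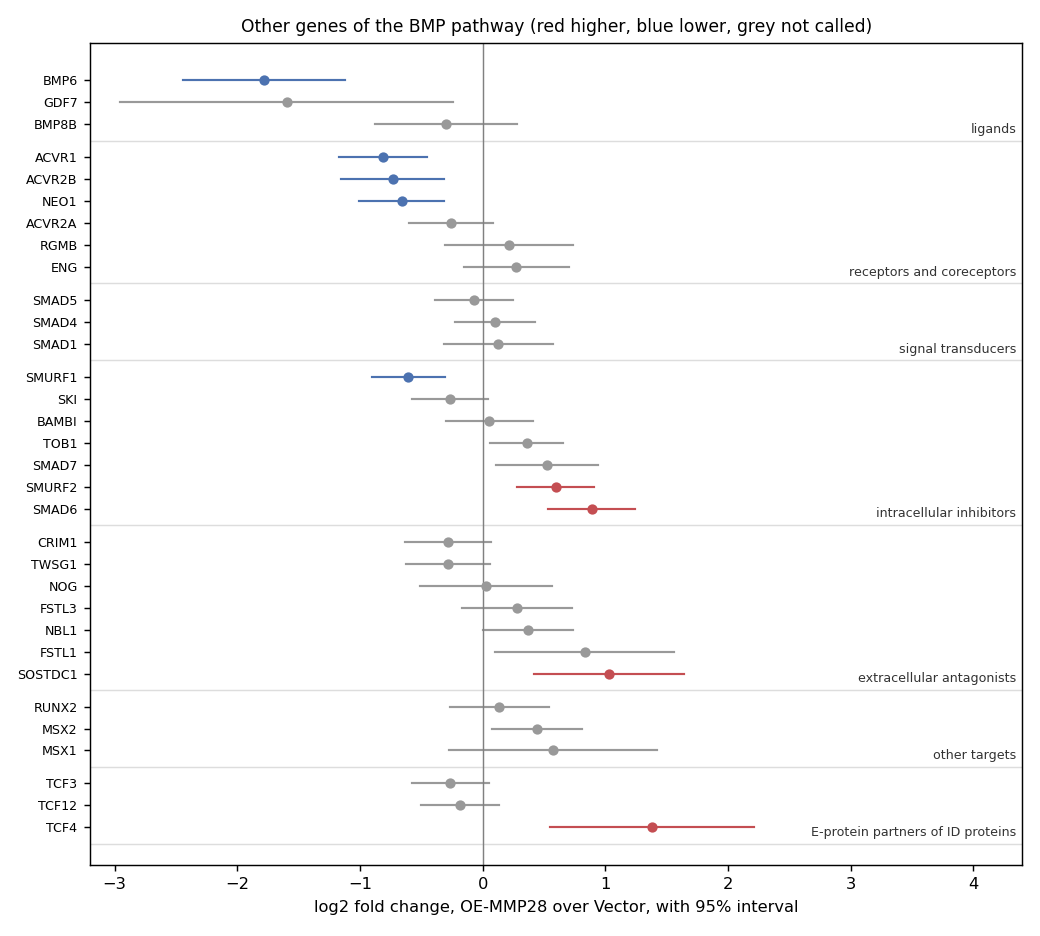
log2 fold change (OE-MMP28 over Vector, horizontal axis) with its 95% interval for the 32 tested genes of the wider BMP list, grouped by role, with red for called higher, blue for called lower and grey for not called at an adjusted p under 0.05. The called receptors and coreceptors, BMP6 and SMURF1 lie to the left of 0 and SMAD6, SMURF2, SOSTDC1 and TCF4 to the right.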

How the data were processed

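RNA sequencing of 6 AsPC-1 libraries was analysed, 3 Vector and 3 OE-MMP28, grouped by the sample labels. The labels read only NC and OE, and taking NC as the empty vector control rests on the study's text. The authors deposited whole-number read counts per gene, neither normalized nor pooled, and FPKM values. The submitters' processing notes name HISAT2 2.0.5 and featureCounts 1.5.0-p3. The build, the strand setting and the handling of reads with several matches are not given in the sources used here. All 58735 gene identifiers and coordinates were those of GENCODE 29 on GRCh38. The deposited FPKM equalled the counts over exon length with 1 scaling total in each library, which lay -2.01% to 2.02% from the sum of its counts. Columns with group means, fold changes and p-values of the authors' own comparison were not used, and 0 per-sample columns were left unmapped.

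Counts were tested with edgeR 4.0.16 in R 4.3.3 (quasi-likelihood, two-sided, TMM scaling, filterByExpr with a minimum count of 10 and total of 15, group as the only term), with Benjamini-Hochberg adjustment over the 15319 genes tested. The study names limma, which served as an alternative because counts were present. A call is an adjusted p under 0.05. The SE is the absolute log2 fold change over the square root of F. The script was tested on simulated data. Alternatives were leaving out each library, the replicate block, upper-quartile scaling, DESeq2 1.42.0, limma 3.58.1 (voom, and log2(FPKM + 1) and log2(FPKM + 0.1)), no filter, a filter of 1 CPM in 3 libraries, protein-coding genes, no mitochondrial genes, and an offset equal to the median log2 fold change of the other tested genes within 5 Mb. That offset came from the same libraries and entered as a fixed value, so p-values with it leave out the uncertainty of the median. Near copies were sought with BLAST 2.17.0 at 95% identity over 500 bases.

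Named genes were the 10 BMP genes, MMP28 and the called genes of the wider list, and other tested genes of that list appear only within ranges. Overlapping genes, near copies and the marker at 0 were named in addition, as limits of a value, TRRAP and CEP95 after their values were seen. The BMP genes, the lists and the neighbour offset were chosen with earlier results of these data known. No 2 libraries agreed within sampling noise. Depth was 13633249 to 16691458 counts per library, and limits from counts cover counting error only.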

Additional observations from a re-analysis of the deposited data

How the results depend on the processing

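The number of BMP genes called, 4 in all, was 1 to 4 when 1 library was left out, 2 with limma on log2(FPKM + 1), 2 with limma on log2(FPKM + 0.1) and 0 with the offset for neighbouring genes. It was 3 without a filter and 4 in the other 7 alternatives. MMP28 kept its direction and call in all 17 alternatives. The wider list gave 7 to 11 calls against 9.

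Direction turned in 5 cases. BMP2, at 0.04 with all libraries and -0.23 to 0.32 when 1 was left out, was -0.23 without Vector replicate 3, -0.066 without OE-MMP28 replicate 1, -0.005 with upper-quartile scaling and -0.11 with the offset, none of them past the threshold. BMP4 was -0.10 with the offset. BMPR2 had an adjusted p of 0.0601 and 0.0571 and BMP7 of 0.0525 and 0.0517 in the limma fits on log2(FPKM + 1) and log2(FPKM + 0.1), while limma voom kept both calls (0.0221 and 0.0446), and BMP7 of 0.0777 without a filter. The cause was not tested.

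Replicate numbers did not pair the samples. Deviations of equally numbered libraries correlated across genes at 0.017, 0.008 and -0.088, and no library matched its own number best. With the replicate number as a block 4 BMP genes were called, 2 higher (BMP4 and ID1) and 2 lower, and 9 genes of the wider list. Over all genes the block gave 1844 higher and 1841 lower calls, against 1795 and 1784. Leaving out OE-MMP28 replicate 2 gave 985 and 1044, and Vector replicate 3 gave 1136 and 1231. The offset gave 1137 and 1230. The 3 libraries a group limit what can be called, and ID3, SMAD9 and TCF4 are limited by depth as well.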
